A study of Sus scrofa with 21 samples.

Results

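Chemokines are small secreted proteins that direct the movement of leukocytes, and their receptors are G protein-coupled receptors on the cells that move. The ligands fall into CC, CXC, XC and CX3C classes by the spacing of their first cysteines. Some receptors of the group are atypical: they bind ligand without the usual G protein signal and shape the gradient instead. In blood, the receptors sort cells by type, with CCR7 on naive T cells, CCR2 on classical monocytes and CXCR6 on activated lymphocytes, whereas many ligands are made mainly in tissue.

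The breed difference in blood RNA was examined for 39 chemokine and chemokine receptor genes of the pig array, out of 48527 gene names and unnamed probes. They were chosen by the gene name in the scanner files, and IL8 and the porcine AMCF-II were included. The name rule took capital letters only, so Cxcr1 and ccr4, as the array writes them, are not among the 39. CXCL9, CXCL10, CXCL11, CXCR2, CXCR3 and CCR3 were set apart and serve here as a comparison. The 39 genes have 74 probes, each of 60 bases. By accession for 32 genes and by symbol for the other 7, all 39 were matched to a RefSeq gene of Sscrofa11.1. Older names are used for 3 of them: RefSeq has CXCL8 for IL8, ACKR3 for CXCR7 and ACKR4 for CCRL1.

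The DD pigs belong to SLAdd, a minipig line homozygous at the swine leukocyte antigen locus and kept inbred in France. The LW pigs are Large White, an outbred production breed used as the control. All pigs were 60 days old, were raised on the same farm and ate a standard diet without restriction. Each pig was hybridised to 1 array. The 10 DD pigs came from 5 litters and the 11 LW pigs from 6, with at most 2 siblings of a litter. As DD is 1 inbred herd, a difference between breeds holds for these herds, and in whole blood fewer cells of a type cannot be told apart from less RNA per cell.

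The arrays sat on 3 chips, and each chip held both breeds: the first had 3 DD and 4 LW pigs, the second 4 of each and the third 3 of each. An array had between 44.7% and 63.8% of its probes well above background. Precision is limited by how many arrays there are. DD arrays were dimmer. Brightness, which is the 75th percentile of an array's processed signal on the log2 scale, was 7.53 ± 0.54 in DD pigs (SD, n = 10) and 8.22 ± 0.38 in LW pigs (SD, n = 11), a difference with p = 0.00866 in a two-sided exact permutation of 11 litter means. As a check of the tissue, the haemoglobin gene HBB, the leukocyte gene PTPRC, the T cell gene CD3E, the monocyte gene CD14, the neutrophil gene S100A8, the B cell gene MS4A1 and the platelet gene ITGA2B were each above background on all 21 arrays.

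Several results below turn on what a single probe reads. The probes of CCL5, the chemokine RANTES secreted by T cells and platelets, of CXCR4, the receptor for CXCL12, and of CCL8, a monocyte attractant, are shown as examples of probes that read the coding sense strand. The pair of CCL14 probes is shown because the members of the pair lie on opposite strands. Capitals mark the run of 59 bases that one CCL14 probe shares with the reverse complement of the other.
CCL5 A_72_P115401: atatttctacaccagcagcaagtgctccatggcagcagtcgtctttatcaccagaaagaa
CXCR4 A_72_P088501: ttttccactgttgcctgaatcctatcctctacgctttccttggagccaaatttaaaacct
CCL8 A_72_P441594: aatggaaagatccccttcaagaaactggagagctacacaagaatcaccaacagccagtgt
CCL14 A_72_P254852: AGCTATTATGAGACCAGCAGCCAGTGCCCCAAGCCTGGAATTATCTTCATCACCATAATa
CCL14 O4345: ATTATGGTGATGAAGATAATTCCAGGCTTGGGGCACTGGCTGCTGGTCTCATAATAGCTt
CCL14 O4345, reverse complement: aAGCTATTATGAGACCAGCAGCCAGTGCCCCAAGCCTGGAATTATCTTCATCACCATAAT

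After the dimmest 25% of probes were removed, 34 of the 39 genes were tested. This filter took the mean level over all 21 pigs, with a cut at 3.97 on the log2 scale. A dim probe could therefore pass through the breed where it was higher. In DD pigs 10 were higher and 6 lower at an adjusted p below 0.05, so 16 of 34 were called against 21.0% of all 35578 genes tested. Called higher were 11.4% of all genes, and called lower were 9.57%. The median log2 fold change (FC) of the 34 genes was 0.13 on the DD minus LW scale, and that of all genes was −0.04 (0.06 under 75th percentile scaling, where that of the genes tested here was 0.38). Other scalings of the arrays split the calls otherwise. By 75th percentile scaling there were 12 higher and 3 lower, with 14.3% and 6.32% of all genes called in these directions. By cyclic loess there were 11 and 4, with 13.4% and 6.30% of all genes. The 75th percentile calls took in CCL11 (1.01, adjusted p = 0.0232 in limma), CCL17, CCL28 and CMKLR1, none of them called on the deposited values. In none of the 34 genes did the 2 breeds separate fully. Such separation was rare over all genes too, with every DD pig above every LW pig for 0.101% and below for 0.281%. Its absence among 34 genes therefore does not set them apart.

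**Figure D1:**
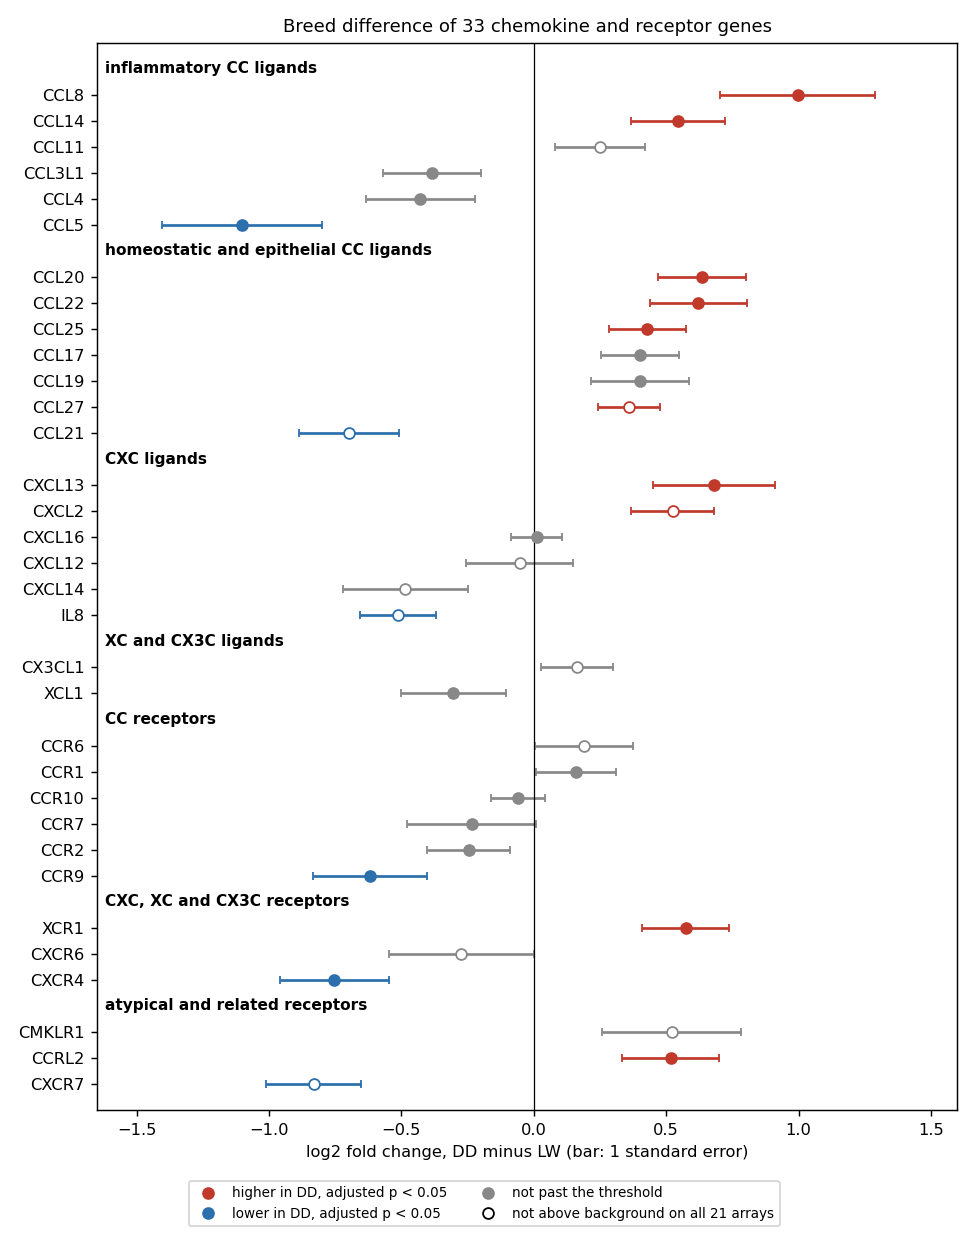
Fitted log2 FC (DD minus LW, horizontal axis) of 33 of the 34 tested genes with 1 standard error, ordered by role and, within a role, by size. Red genes were higher and blue genes lower in DD pigs at an adjusted p below 0.05, and open symbols mark genes not above background on all 21 arrays; CCL8 and CCL5 lie at the ends, at 1.00 and −1.10.

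Among the inflammatory CC ligands, which recruit monocytes and effector lymphocytes, CCL5 was lower and CCL8 and CCL14 higher in DD pigs, while CCL3L1, CCL4 and CCL11 did not pass the test. CCL5 ranged from 10.49 (median 11.69) to 13.50 in the DD pigs and from 11.41 (median 13.24) to 14.13 in the LW pigs. The breeds overlapped, with 3 DD pigs below all LW pigs and 4 LW pigs above all DD pigs. CCL5 had a log2 FC of −1.10 (standard error 0.30, adjusted p = 0.0198 in limma), a 2.15-fold lower signal. Its 3 probes read −1.08, −1.11 and −1.12 on the log2 scale, so they differed by less than their standard errors, and the first was not called on its own (adjusted p = 0.0723 in limma). CCL8 ranged from 5.74 (median 6.82) to 8.61 in the DD pigs and from 4.38 (median 6.19) to 6.95 in the LW pigs. Of the DD pigs 4 lay above all LW pigs. CCL8 had a log2 FC of 1.00 (standard error 0.29, adjusted p = 0.0257 in limma), a 1.99-fold higher signal, and its difference was much alike on the chips, at 0.90 on the first chip, 1.06 on the second and 0.99 on the third. CCL14, an attractant of monocytes found in plasma, ranged from 8.20 (median 9.14) to 9.54 in the DD pigs and from 7.75 (median 8.26) to 9.86 in the LW pigs, and no DD pig lay above all LW pigs. CCL14 had a log2 FC of 0.54 (standard error 0.18, adjusted p = 0.0353 in limma), which its 2 probes did not share.

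The A_72_P254852 probe of CCL14, whose sequence reads as the coding strand, was at 6.53 ± 0.33 in DD pigs (SD, n = 10) and 6.39 ± 0.28 in LW pigs (SD, n = 11), and its log2 FC was 0.15 (standard error 0.13, adjusted p = 0.432 in limma). The opposite-strand probe O4345 was at 11.38 ± 0.83 in DD pigs (SD, n = 10) and 10.52 ± 1.11 in LW pigs (SD, n = 11), with a log2 FC of 0.94 (standard error 0.31, adjusted p = 0.0347 in limma). The call for CCL14 therefore came from the probe that is the reverse complement of the coding one, and over the 21 pigs both probes correlated at r = 0.294, given as a description. CCL8 holds a pair of the same kind, in which the opposite-strand probe O12187 shares a run of 52 bases with the reverse complement of A_72_P441594. That probe was well above background on 1 of 21 arrays and was removed as dim, so the CCL8 value rests on the other 2 probes. Those gave 1.33 (standard error 0.35, adjusted p = 0.0146 in limma) and 0.66 (standard error 0.28, adjusted p = 0.0957 in limma).

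CCL3L1 and CCL4, attractants of monocytes and T cells, were at 8.95 ± 0.35 in DD pigs (SD, n = 10) and 9.34 ± 0.55 in LW pigs (SD, n = 11) for CCL3L1 and 8.98 ± 0.61 in DD pigs (SD, n = 10) and 9.42 ± 0.61 in LW pigs (SD, n = 11) for CCL4. Neither passed the test, with a log2 FC of −0.39 (standard error 0.19, adjusted p = 0.136 in limma) and −0.43 (standard error 0.21, adjusted p = 0.134 in limma). Both probes of CCL4 leaned the same way, at −0.36 and −0.50, but those of CCL3L1 did not. Its probe O1921 read −0.82 (standard error 0.29, adjusted p = 0.0460 in limma), and the other, A_72_P035356, read 0.05 (standard error 0.17, adjusted p = 0.849 in limma). CCL11, the eosinophil attractant eotaxin, was above background in 1 pig of each breed.

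The genes of this class lie on chromosome 12. From CCL4 (chromosome 12, 39479190 to 39480511) the order goes through CCL3L1, CCL14, CCL16, CCL5 (chromosome 12, 39652731 to 39659121), CCL8 (chromosome 12, 40740468 to 40741970) and CCL11 to CCL2 (chromosome 12, 40798109 to 40800013). CCL5 and CCL8, which moved in opposite directions, lie in separate stretches, CCL5 with CCL4 and CCL8 with CCL2.

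Of the homeostatic and epithelial CC ligands, which place lymphocytes and dendritic cells in lymphoid tissue, gut and skin, 4 were higher and 1 lower among 7 tested. CCL20, the ligand of CCR6, ranged from 5.56 (median 6.47) to 7.03 in the DD pigs and from 4.81 (median 5.82) to 6.44 in the LW pigs, with 5 DD pigs above all LW pigs. CCL20 had a log2 FC of 0.64 (standard error 0.17, adjusted p = 0.0161 in limma). CCL22, a ligand of CCR4 made by dendritic cells and macrophages, ranged from 8.07 (median 9.01) to 10.58 in the DD pigs and from 7.66 (median 8.57) to 9.17 in the LW pigs. The DD pigs reached higher, with 4 above all LW pigs, but their lower values overlapped. CCL22 had a log2 FC of 0.62 (standard error 0.18, adjusted p = 0.0260 in limma), 1.54-fold. CCL25, the thymic and intestinal ligand of CCR9, ranged from 8.38 (median 8.91) to 10.08 in the DD pigs and from 7.88 (median 8.76) to 9.51 in the LW pigs. CCL25 had a log2 FC of 0.43 (standard error 0.15, adjusted p = 0.0412 in limma), and the 3 DD pigs above all LW pigs were the 3 on chip 3.

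CCL27, a skin ligand of CCR10, was dim and was above background in 5 DD and 7 LW pigs. CCL27 ranged from 4.86 (median 5.15) to 5.74 in the DD pigs and from 4.58 (median 4.78) to 5.26 in the LW pigs. It was the smallest of the called differences, with a log2 FC of 0.36 (standard error 0.12, adjusted p = 0.0352 in limma). Other spots that overlap its probe were not called. A spot named Ccl27 that shares 59 bases read 0.22 (standard error 0.14, adjusted p = 0.261 in limma). A spot that shares 51 bases, above background in 9 DD and 11 LW pigs, read 0.33 (standard error 0.14, adjusted p = 0.0963 in limma). CCL21, a ligand of CCR7 that guides T cells into lymph nodes, was the gene lower in DD pigs. CCL21 ranged from 4.05 (median 4.21) to 4.50 in the DD pigs and from 4.21 (median 4.85) to 6.15 in the LW pigs, and 6 DD pigs lay below all LW pigs. The gene was above background in 1 DD and 7 LW pigs, and its log2 FC of −0.70 (standard error 0.19, adjusted p = 0.0186 in limma) rested on the probe O12732, above background in 0 DD and 7 LW pigs. On that probe the log2 FC was −1.32 (standard error 0.28, adjusted p = 0.00383 in limma). With DD pigs under the lowest signal well above background set at it, the LW mean was 2.33-fold higher. That mean takes in LW pigs not above background. The other CCL21 probe read −0.08. CCL21 was not called with values re-computed from the scanner files (−0.61, adjusted p = 0.0556 in limma), and its log2 FC was −0.19 (adjusted p = 0.231 in limma) with a normexp offset of 50.

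CCL17 and CCL19 did not pass the threshold. CCL17, the other ligand of CCR4, was at 12.40 ± 0.37 in DD pigs (SD, n = 10) and 12.00 ± 0.41 in LW pigs (SD, n = 11) and missed the threshold with a log2 FC of 0.40 (standard error 0.15, adjusted p = 0.0546 in limma). It passed in 6 of 15 other settings, cyclic loess among them (0.54, adjusted p = 0.0335 in limma), and a spot with the sequence of one of its probes was called (0.41, adjusted p = 0.0417 in limma). CCL22 and CCL17 are neighbours on chromosome 6 (chromosome 6, 19296726 to 19301506 for CCL22 and chromosome 6, 19345929 to 19372972 for CCL17). CX3CL1 lies between them (chromosome 6, 19312351 to 19324439). CCL19, the partner of CCL21 as a CCR7 ligand, read 0.40 (standard error 0.18, adjusted p = 0.118 in limma), opposite in sign to CCL21. CCL21, CCL19 and CCL27 also form a cluster, on chromosome 10 from 32093783 to 32138980.

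**Figure D2:**
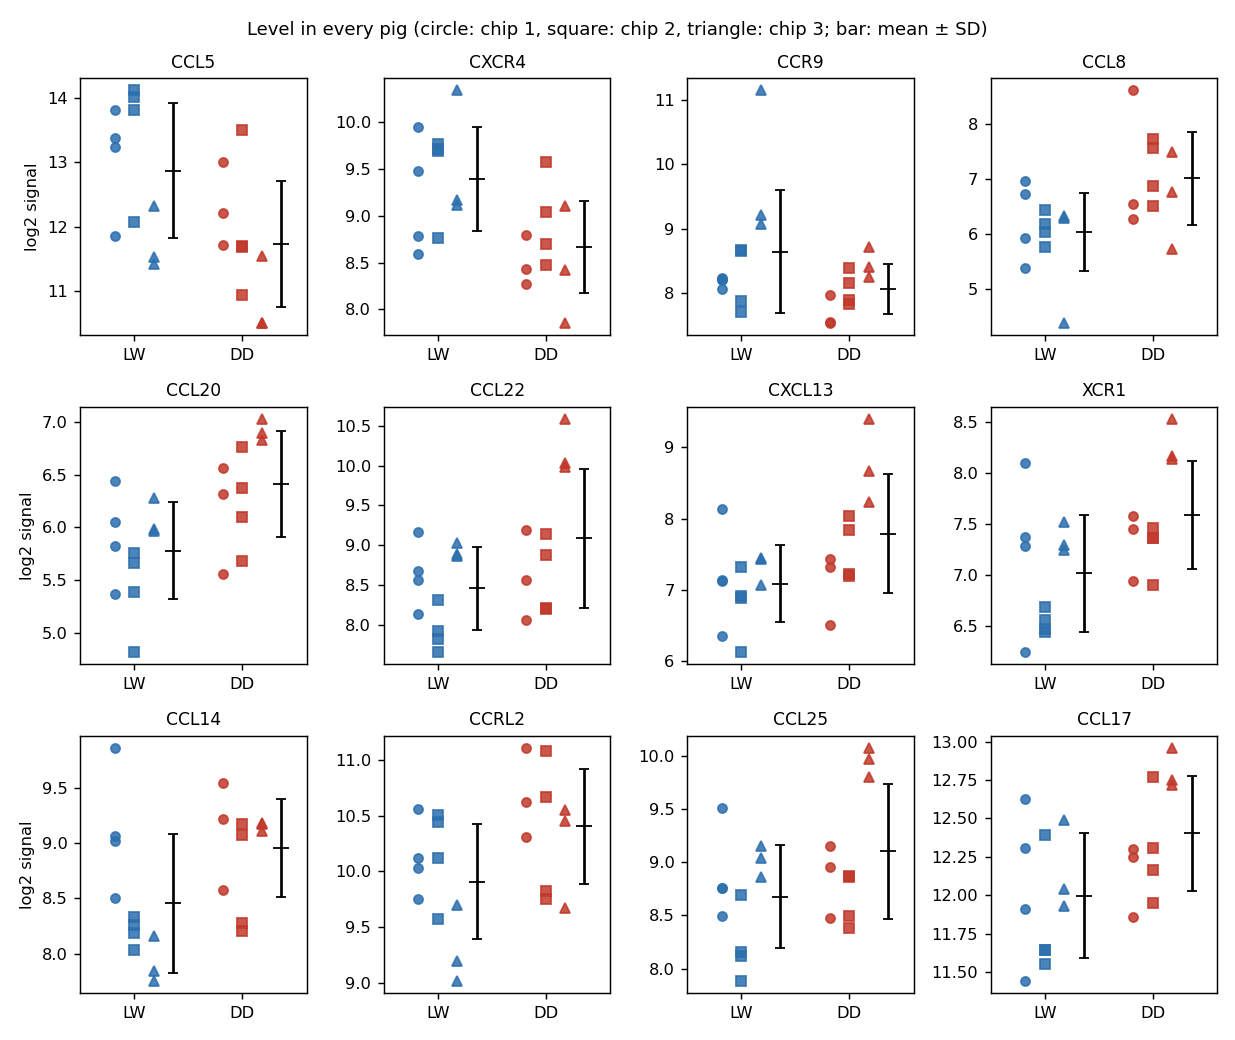
Log2 signal of 12 genes above background on all arrays in every pig, with LW pigs in blue and DD pigs in red, the chip as the symbol and the mean ± SD as a bar beside the points. In all 12 panels the breeds overlap, and the DD pigs of chip 3 (triangles) are the 3 highest of their breed for CCL20, CCL22, CCL25, CXCL13 and XCR1.

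Of the CXC ligands 2 were higher and 1 lower among 6 tested, and CXCL13 was the one of these 3 above background on all arrays. CXCL13, the attractant that draws CXCR5-bearing B cells into follicles, ranged from 6.51 (median 7.64) to 9.40 in the DD pigs and from 6.13 (median 7.13) to 8.13 in the LW pigs. CXCL13 had a log2 FC of 0.68 (standard error 0.23, adjusted p = 0.0400 in limma), with 3 DD pigs above all LW pigs. A probe named LOC100524265 that shares a run of 37 bases with the CXCL13 probe read 0.45 (standard error 0.18, adjusted p = 0.0742 in limma). CXCL2 and IL8, both neutrophil attractants, had log2 FCs of opposite sign, and both lay near background. CXCL2 ranged from 3.85 (median 4.08) to 5.51 in the DD pigs and from 3.29 (median 3.66) to 4.44 in the LW pigs, and was above background in 2 DD and 1 LW pigs. CXCL2 had a log2 FC of 0.52 (standard error 0.16, adjusted p = 0.0268 in limma). It came from the probe O8155 (1.00), above background in 1 DD and 1 LW pigs, on which DD pig 8 reached 7.01. This probe passed the filter only through the DD pigs, as its LW mean, 3.57, lay below the cut of 3.97. The probe A_72_P146411, above background in 1 DD and 0 LW pigs, read 0.04. With no filter, which adds the probe A_72_P732383, CXCL2 read 0.30 (adjusted p = 0.137 in limma). IL8 ranged from 3.92 (median 4.13) to 4.53 in the DD pigs and from 4.03 (median 4.72) to 5.66 in the LW pigs, and was above background in 1 DD and 9 LW pigs. IL8 had a log2 FC of −0.51 (standard error 0.14, adjusted p = 0.0216 in limma). Its 4 probes all read lower in DD pigs, and 2 were called, A_72_P232367 and O311, which carry the same 60 bases. Each of these was above background in 0 DD and 4 LW pigs. Each passed the filter only through the LW pigs, with DD means of 3.80 and 3.87 below the cut of 3.97. The probes of other sequence were not called. A_72_P413808, above background in 1 DD and 8 LW pigs, read −0.17 (standard error 0.12, adjusted p = 0.326 in limma). CUST_130_PI427286967 read −0.37 (standard error 0.20, adjusted p = 0.188 in limma). With DD pigs under the lowest signal well above background set at it, the LW mean was 1.41-fold higher on A_72_P232367 and 1.33-fold on O311. That mean takes in LW pigs not above background. Under the other settings the log2 FC of IL8 ran from −0.70 to −0.16.

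CXCL16, the ligand of CXCR6, was the CXC ligand with the smallest difference between breeds. Its signal was 10.43 ± 0.28 in DD pigs (SD, n = 10) and 10.44 ± 0.23 in LW pigs (SD, n = 11), and the log2 FC was 0.01 (standard error 0.10, adjusted p = 0.950 in limma). CXCL12, the ligand of CXCR4, was dim in both breeds and had a log2 FC of −0.05 (standard error 0.20, adjusted p = 0.868 in limma). CXCL14, an epithelial chemokine, was above background in 0 DD and 2 LW pigs, and it was not called (adjusted p = 0.141 in limma), its sign turning under 75th percentile scaling.

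In the XC and CX3C class, the lymphotactin gene XCL1 was the one measured above background in every pig. XCL1, made by NK and CD8 T cells, ranged from 5.69 (median 6.37) to 7.68 in the DD pigs and from 6.27 (median 6.87) to 7.62 in the LW pigs. XCL1 had a log2 FC of −0.30 (standard error 0.20, adjusted p = 0.274 in limma), which did not pass the test. CX3CL1, the membrane-bound fractalkine, was above background in 1 pig of each breed.

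Among the CC receptors, CCR9 alone was called, and the 7 others tested, ccr4 among them, had log2 FCs from −0.25 (CCR2) to 0.19 (CCR6). CCR9, the receptor that sends lymphocytes to the gut, ranged from 7.53 (median 8.06) to 8.71 in the DD pigs and from 7.70 (median 8.23) to 11.15 in the LW pigs. The highest value, 11.15, belonged to LW pig 24, when the next LW pig was at 9.21. CCR9 had a log2 FC of −0.62 (standard error 0.21, adjusted p = 0.0445 in limma). Without LW pig 24 it was −0.41 (adjusted p = 0.0509 in limma), and in 14 of 21 fits without 1 pig the call was lost. In the main fit CCR9 was lower in DD pigs and its ligand CCL25 higher, and both were above background in all pigs. Neither call was stable, as CCL25 lost its call in 15 of 21 fits without 1 pig and read −0.02 on chip 1.

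CCR7 was at 8.49 ± 0.87 in DD pigs (SD, n = 10) and 8.77 ± 0.61 in LW pigs (SD, n = 11), with a log2 FC of −0.24 (standard error 0.24, adjusted p = 0.505 in limma). CCR2 was at 8.47 ± 0.41 in DD pigs (SD, n = 10) and 8.70 ± 0.33 in LW pigs (SD, n = 11), with a log2 FC of −0.25 (standard error 0.16, adjusted p = 0.257 in limma). CCR1, on monocytes and neutrophils, read 0.16 (standard error 0.15, adjusted p = 0.460 in limma). CCR6, on B cells and memory T cells, read 0.19 (standard error 0.18, adjusted p = 0.474 in limma). For CCR10, on skin-homing T cells, the 2 probes disagreed: the one above background in all pigs read −0.34 (standard error 0.12, adjusted p = 0.0410 in limma), and the other was above background in none. The average of both was −0.06 (standard error 0.10, adjusted p = 0.694 in limma), and 0.09 under 75th percentile scaling. CCR9, CXCR6, XCR1, CCR1, CCR2 and CCRL2 lie on chromosome 13 between 29033609 and 29410508. RefSeq places XCR1 (chromosome 13, 29150376 to 29233802) over CCR1 (chromosome 13, 29227218 to 29233862), but no XCR1 probe shares a run of 25 bases with a CCR1 probe.

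Of the CXC, XC and CX3C receptors tested, CXCR4 was lower and XCR1 higher in DD pigs. CXCR4, carried by most leukocytes and the anchor of progenitors in bone marrow, ranged from 7.85 (median 8.59) to 9.57 in the DD pigs and from 8.59 (median 9.48) to 10.34 in the LW pigs. Of the DD pigs 5 lay below all LW pigs and of the LW pigs 5 above all DD pigs. CXCR4 had a log2 FC of −0.75 (standard error 0.21, adjusted p = 0.0191 in limma), a 1.69-fold lower signal. All 3 probes were called, at −0.78, −0.76 and −0.73, and the difference was −0.70 on the first chip, −0.54 on the second and −1.08 on the third. XCR1, the XCL1 receptor of cross-presenting dendritic cells, ranged from 6.90 (median 7.45) to 8.52 in the DD pigs and from 6.25 (median 7.24) to 8.10 in the LW pigs. XCR1 had a log2 FC of 0.57 (standard error 0.17, adjusted p = 0.0237 in limma). The value is an average of 2 probes that disagreed: A_72_P232622, above background on all arrays, was at 10.97 ± 0.96 in DD pigs (SD, n = 10) and 9.95 ± 0.87 in LW pigs (SD, n = 11) with a log2 FC of 1.02 (standard error 0.27, adjusted p = 0.0155 in limma), and A_72_P444112 was above background on none. CXCR6 was at 5.51 ± 0.77 in DD pigs (SD, n = 10) and 5.75 ± 0.77 in LW pigs (SD, n = 11), and its log2 FC of −0.27 (standard error 0.27, adjusted p = 0.490 in limma) was not called.

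Among the atypical and related receptors, CXCR7 was lower and CCRL2 higher. CXCR7, a scavenger of CXCL12, was above background in 0 DD and 4 LW pigs. CXCR7 ranged from 2.67 (median 3.80) to 4.72 in the DD pigs and from 3.59 (median 4.53) to 5.29 in the LW pigs. On the deposited values the log2 FC was −0.83 (standard error 0.18, adjusted p = 0.00502 in limma). Its DD mean, 3.67, lay below the filter's cut of 3.97 and its LW mean, 4.495, above it. It passed the filter only through the LW pigs. With no filter the log2 FC was −0.83 (adjusted p = 0.00927 in limma). With DD pigs under the lowest signal well above background set at it, the LW mean was 1.35-fold higher. That mean takes in LW pigs not above background. With a normexp offset of 50, which compresses low signals, the log2 FC was −0.23 (adjusted p = 0.00807 in limma). A second spot with the identical sequence, which the array names cxcr7, was above background in 0 DD and 5 LW pigs and was also called lower (adjusted p = 0.00973 in limma). CCRL2, which binds the attractant chemerin and presents it to CMKLR1, ranged from 9.67 (median 10.50) to 11.11 in the DD pigs and from 9.01 (median 10.03) to 10.56 in the LW pigs. CCRL2 had a log2 FC of 0.52 (standard error 0.18, adjusted p = 0.0486 in limma), and 4 DD pigs lay above all LW pigs. Its probes O3579 and A_72_P146431 read 0.52 (standard error 0.15, adjusted p = 0.0235 in limma) and 0.52 (standard error 0.30, adjusted p = 0.213 in limma). CMKLR1, the signalling receptor of chemerin, was above background in 3 DD and 2 LW pigs and had a log2 FC of 0.52 (standard error 0.26, adjusted p = 0.153 in limma). It was 1.30 (adjusted p = 0.0431 in limma) under 75th percentile scaling and 0.98 (adjusted p = 0.00752 in limma) without chip 2.

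The untested genes were CCL2, CCL16, CCL28, AMCF-II and CCRL1. Their 8 probes had breed means between 3.35 and 4.01 and were above background on at most 1 of 21 arrays. CCL2, the main ligand of CCR2, is among them, with 3 probes above background on none.

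With 19 genes tested on 2 or more probes, the probes were also fitted one by one, and 22 of 58 tested probes were called against 21.7% of all probes. For CCL5, CXCR4 and CCRL2 the tested probes differed by less than their standard errors. For CCL20, XCR1, CCL14, CXCL2 and CCL21 a single probe carried the call. CCL20 is an example: O1138, above background in all pigs, read 1.06 (standard error 0.31, adjusted p = 0.0229 in limma), and A_72_P177441, above background in 3, read 0.21.

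The array also carries spots of the same sequence under accession names that the gene name rule does not take. Of 24 probes with such an identical spot, 21 could be compared, and in 21 the sign of the log2 FC was the same, with a largest difference of 0.476. The identical spot of the XCR1 probe A_72_P232622 read 1.02 (standard error 0.27, adjusted p = 0.0167 in limma), that of CCRL2 0.52 (standard error 0.15, adjusted p = 0.0224 in limma), that of CCR9 −0.66 (standard error 0.22, adjusted p = 0.0399 in limma) and that of CCL25 0.43 (standard error 0.15, adjusted p = 0.0481 in limma). These spots were hybridised with the same RNA, so they measure the spot and not the pig. The largest difference was in the CCL21 probe A_72_P165806, whose second copy was above background in 0 DD and 4 LW pigs and was not called (adjusted p = 0.0598 in limma). A spot that shares 57 bases with the CXCR4 probe A_72_P088501 read −0.48 (standard error 0.23, adjusted p = 0.138 in limma) against −0.78.

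**Figure D3:**
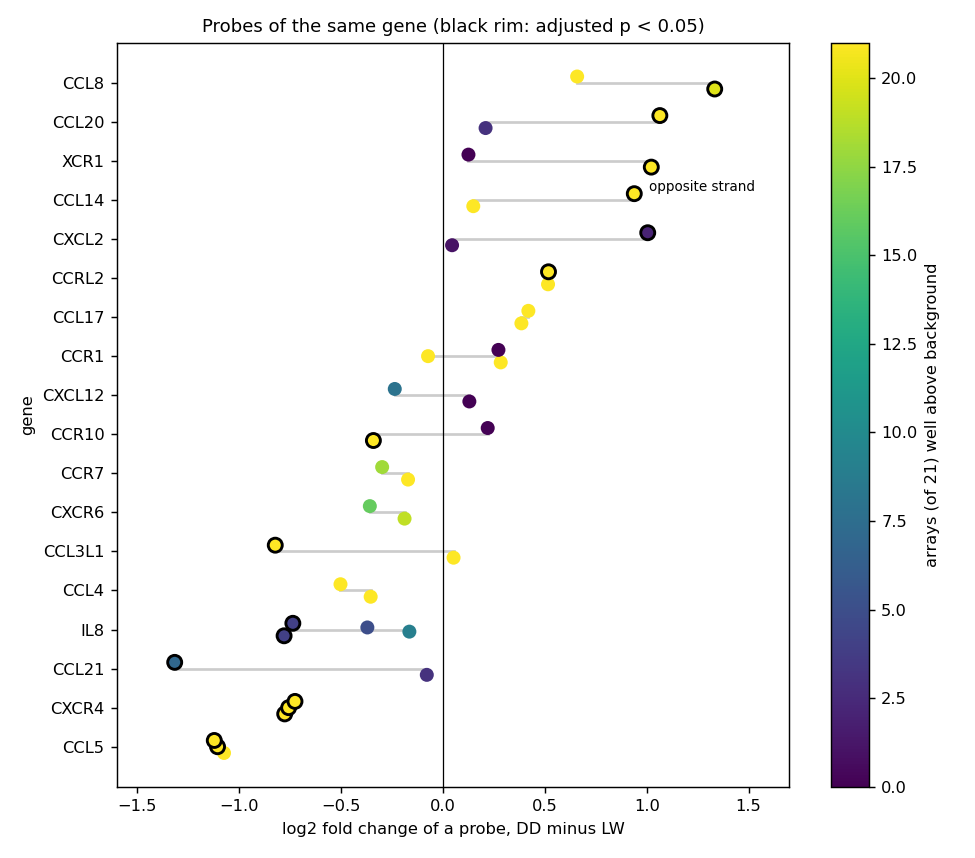
Log2 FC of each tested probe (DD minus LW, horizontal axis) for 18 of the 19 genes with more than 1 tested probe, coloured by the number of arrays, of 21, on which the probe was well above background, with a black rim where the probe passed an adjusted p of 0.05. The probes of CCL5 and CXCR4 coincide, whereas CCL14, XCR1, CCL20, CXCL2 and CCL21 pair a called probe with one near 0.

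The difference between breeds was compared within each chip, because the study's authors reported a technical bias of the third chip. In 12 of the 16 called genes the sign was the same on all 3 chips, against 87.9% of all called genes. The 4 exceptions were CXCL13 (−0.10 on the first chip, 0.76 on the second and 1.45 on the third), CCL22 (−0.03 on the first chip, 0.68 on the second and 1.27 on the third), CCL25 (−0.02 on the first chip, 0.44 on the second and 0.93 on the third) and CCL14, all called higher. Among the 10 genes called higher, 9 had a larger difference on chip 3 than on chip 1, as had 87.5% of all genes called higher. The gap in array brightness, DD minus LW on the log2 scale, had the same order of size, with −0.07 on chip 1, −0.76 on chip 2 and −1.27 on chip 3. No gene of the 34 passed an adjusted p of 0.05 for a breed by chip interaction, and 7 had an unadjusted p below 0.05, where 14.9% of all genes did.

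**Figure D4:**
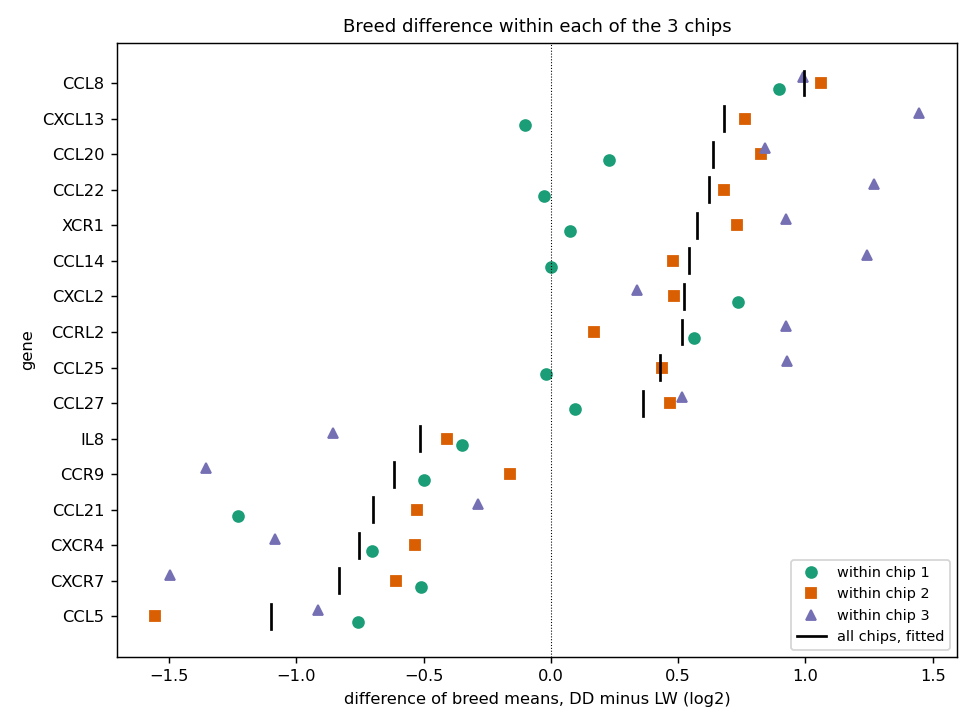
Difference of breed means (DD minus LW, log2, horizontal axis) of the 16 called genes within chip 1, chip 2 and chip 3, with the fitted value over all chips as a vertical bar. CCL8, CXCR4 and CCL5 keep their sign on each chip, whereas CXCL13, CCL22, CCL14 and CCL25 are near 0 on chip 1.

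With array brightness as a further term, none of the 34 genes passed the threshold (limma), and 9 had an unadjusted p below 0.05, while 2.19% of all genes were called. The sizes of the called genes moved unequally. CCL8 read 1.25 (standard error 0.39, adjusted p = 0.120 in limma), CCL21 −0.88 (standard error 0.24, adjusted p = 0.0686 in limma), CCL5 −0.97 (standard error 0.42, adjusted p = 0.343 in limma), CXCR4 −0.61 (standard error 0.28, adjusted p = 0.375 in limma) and CXCL2 0.60 (standard error 0.21, adjusted p = 0.187 in limma). CCL22, in contrast, read 0.01 (standard error 0.12, adjusted p = 0.998 in limma), CCL25 −0.01, CXCL13 −0.13, XCR1 0.08 and CCL14 0.06. CCL20 fell from 0.64 to 0.20 and CCL27 from 0.36 to 0.12, while CCRL2 read 0.40, CCR9 −0.59, CXCR7 −0.52 and IL8 −0.38. Without the arrays of chip 3 none passed either, 8 of the 34 had an unadjusted p below 0.05 and all 16 kept their direction, when 1.51% of all genes were called. CCL5 was then at −1.21 (standard error 0.47, adjusted p = 0.285 in limma) and CXCR4 at −0.60 (standard error 0.25, adjusted p = 0.331 in limma). Others were smaller, with CCL14 at 0.22, CCL25 at 0.22, CCL22 at 0.36, CXCL13 at 0.37 and CCR9 at −0.32, and the median size of the 16, regardless of sign, went from 0.619 to 0.398.

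**Figure D5:**
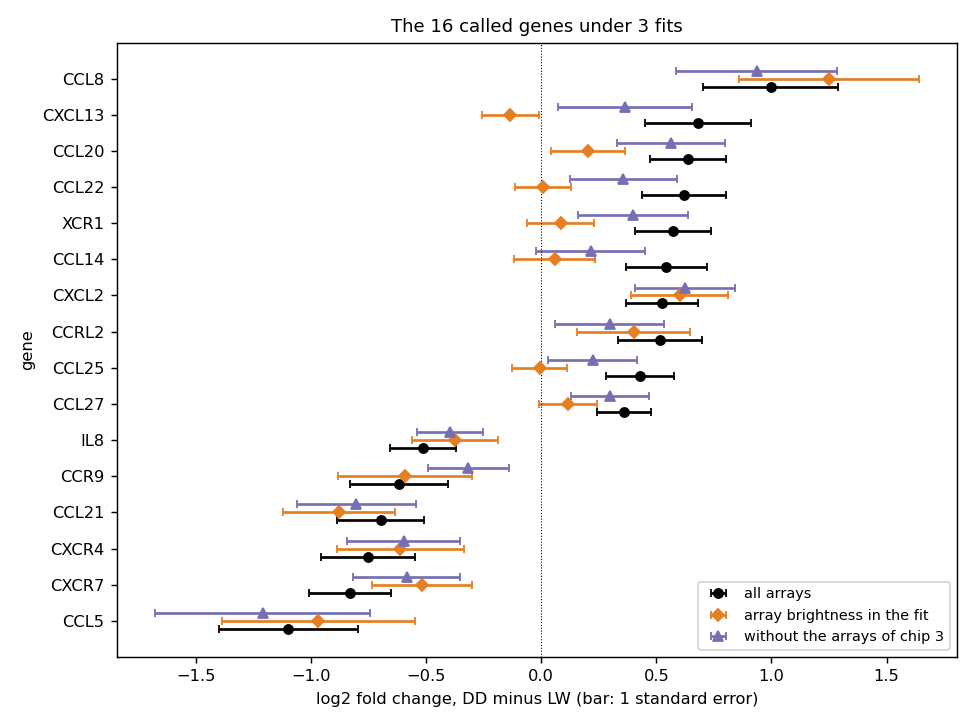
Log2 FC (DD minus LW, horizontal axis) with 1 standard error of the 16 called genes from all arrays (black), with array brightness in the fit (orange) and without the arrays of chip 3 (purple). CCL5, CXCR4, CCL21 and CCL8 stay near their first value with brightness in the fit, whereas CCL22, CCL25, CXCL13 and CCL14 move to about 0.

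Genes of the same system outside the name rule were described by the same fit. Cxcr1, above background in 10 DD and 11 LW pigs, read 0.05 (standard error 0.26, adjusted p = 0.903 in limma). For ccr4 the log2 FC was −0.06 (standard error 0.28, adjusted p = 0.885 in limma). Of the chemokine genes set apart and their platelet relatives, 6 were tested, with CXCL10 (1.87, standard error 0.51, adjusted p = 0.0188 in limma) and its receptor CXCR3 (0.58, standard error 0.18, adjusted p = 0.0329 in limma) higher and the platelet chemokine PPBP (−0.94, standard error 0.32, adjusted p = 0.0413 in limma) lower in DD pigs. With brightness in the fit 1 of the 6 was called and their median log2 FC went from 0.28 to −0.0043. Other chemoattractant receptors had 3 of 6 higher and 0 lower. They were the leukotriene B4 receptors LTB4R2 (0.59, standard error 0.10, adjusted p = 0.000444 in limma) and LTB4R (0.53, standard error 0.16, adjusted p = 0.0291 in limma) and the prostaglandin D2 receptor GPR44 (0.56, standard error 0.18, adjusted p = 0.0366 in limma). With brightness 1 of these 6 was called and the median went from 0.42 to 0.11. Without chip 3 neither list held a call by limma, and 2 and 1 genes of them had an unadjusted p below 0.05. Of 67 genes for signalling downstream of the receptors, 3 passed the test as higher and 12 as lower, and their median log2 FC was −0.09, beside the 21.0% called of all genes. With brightness 1 was called and the median was 0.02. The 3 largest were RGS2, which ends G protein signals (−1.04, standard error 0.18, adjusted p = 0.000663 in limma), the PI3-kinase subunit Pik3r1 (−0.76, standard error 0.25, adjusted p = 0.0365 in limma) and Rasgrp2, an activator of Rap1 (−0.64, standard error 0.17, adjusted p = 0.0176 in limma).

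Markers of the cells that carry these genes were set beside them. For comparison, 11.4% of all genes were called higher and 9.57% lower in the main fit. Of 14 T cell markers, 4 were lower and 0 higher, and all 14 had a negative sign. The largest called were CD8A (−0.77, standard error 0.23, adjusted p = 0.0274 in limma), CD3G (−0.64, standard error 0.14, adjusted p = 0.00504 in limma) and CD247 (−0.63, standard error 0.20, adjusted p = 0.0305 in limma). The mean of the T cell markers ran from 7.93 to 9.03 in DD pigs and from 8.58 to 9.68 in LW pigs, and none of the markers was at background on every array. Of 13 cytotoxic and NK markers 1 was lower, CTSW (−0.66, standard error 0.18, adjusted p = 0.0185 in limma). The share of the T cell markers in the CCL5, CXCR4 and CCR9 differences was not tested. Of 10 monocyte markers 2 were lower, CLEC7A (−1.01, standard error 0.17, adjusted p = 0.000480 in limma) and CD163 (−0.72, standard error 0.21, adjusted p = 0.0232 in limma), while 6 of the 10 had a positive sign and the median log2 FC was 0.06. Of 9 granulocyte markers 6 had a positive sign, with a median of 0.25, and 1 was called lower, BPI, which was above background in 0 DD and 1 LW pigs (adjusted p = 0.0411 in limma). The eosinophil and basophil list held 1 higher gene of 4, GATA2 (0.71, standard error 0.20, adjusted p = 0.0216 in limma), which is also an erythroid progenitor gene. Of 12 erythroid markers 5 were higher, led by ank1 (1.18, standard error 0.24, adjusted p = 0.00343 in limma), EPB42 (1.06, standard error 0.29, adjusted p = 0.0202 in limma) and CA1 (1.02, standard error 0.35, adjusted p = 0.0441 in limma). None of 7 B cell or 7 platelet markers was called. Of 21 interferon-stimulated genes 10 were higher and 0 lower, with OAS1 (1.88, standard error 0.60, adjusted p = 0.0337 in limma), MX1 (1.48, standard error 0.36, adjusted p = 0.0113 in limma) and MX2 (1.41, standard error 0.30, adjusted p = 0.00484 in limma) the largest. With brightness in the fit, 1 monocyte marker and 2 interferon-stimulated genes passed the threshold, and 0 genes of the other 7 marker lists by limma, where 2.19% of all genes did. At an unadjusted p below 0.05 there were 17 interferon-stimulated genes, 5 platelet, 3 monocyte, 3 B cell and 2 erythroid markers, 1 T cell and 1 cytotoxic marker, and none of the granulocyte or the eosinophil and basophil markers. The median log2 FC of the interferon-stimulated genes went from 0.55 to 0.77, that of the erythroid markers from 0.48 to 0.04, that of the T cell markers from −0.32 to −0.11 and that of the platelet markers from −0.15 to −0.81.

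Within breeds, the level of 4 receptors was compared with the mean of the markers of the cells that carry them, over 11 litter means from which the breed mean was taken. A planned relation of Cxcr1 to the granulocyte markers was not run, because of the way the array writes that name, although Cxcr1 was measured. CCR7 followed the T cell markers, with Pearson r = 0.828 (two-sided exact permutation within breeds, p = 0.0024, 0.00958 after Benjamini-Hochberg adjustment over 4 relations) and Spearman rho = 0.873 (exact permutation p = 0.00203, adjusted 0.0081). Without the 2 litters farthest from the median r was 0.723, with the slope on brightness removed it was 0.781, and within chips it was 0.658, 0.928 and 0.685. The other 3 relations did not pass the adjustment. CCR2 and the monocyte markers had r = 0.674 (exact permutation p = 0.0369, adjusted 0.0737) and rho = 0.636 (exact permutation p = 0.064, adjusted 0.128), and r was 0.477 without 2 litters. CXCR6 and the cytotoxic markers had r = 0.549 (exact permutation p = 0.104, adjusted 0.138) and rho = 0.427 (exact permutation p = 0.216, adjusted 0.232), and r was 0.0242 without 2 litters. CXCR4 and the T cell markers had r = 0.311 (exact permutation p = 0.375, adjusted 0.375) and rho = 0.409 (exact permutation p = 0.232, adjusted 0.232), and r was 0.149 without 2 litters.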

How the data were processed

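The scanner files hold spot and background intensity values as deposited, read by Agilent Feature Extraction 10.7.3.1, and flags for signal well above background. The deposited log2 matrix was made by the authors by normexp background correction, log2 scaling and quantile normalization, after they had removed outlying arrays. Groups, chips and litters came from the labels and the study's animal list. Members and gene lists were chosen with earlier results of these data known. The breed was fitted on the deposited log2 values in R 4.3.3 with limma 3.58.1, once the dimmest 25% of probes had been dropped and the remaining probes of a gene name averaged. Chip was a fixed effect and the sow a random block (duplicateCorrelation, consensus −0.108). With this negative correlation the block made standard errors smaller: that of CCL5 was 0.302 with it and 0.323 without. The fit with the block called 16 of the genes and the fit without it 10. P-values were Benjamini-Hochberg adjusted over all 35578 genes, with a threshold of 0.05. Called genes, the gene with the largest difference in each role (above background on at least 10 arrays) and the 3 largest called genes of other lists were named with full values. Sequences are those of the array file, coordinates those of RefSeq for Sscrofa11.1. A probe was called coding where its translation read as the known protein, by knowledge of that protein and with no reference sequence. Marker scores are means of chip-corrected log2 values. Probe-level values come from the same fit on 45228 probes. Alternatives changed the values, scaling, filter, probe summary or model terms, or left out a chip or pig. The fit was also run on simulated data, with a positive litter effect and no brightness gap between breeds. That run cannot speak to the negative sow correlation or the brightness gap of these arrays. The values of 1 tested gene enter the counts and are not reported here.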

Additional observations from a re-analysis of the deposited data

How the results depend on the processing

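The 16 calls of 34 genes became 14 with values re-computed from the scanner files (21.1% of all genes called). They became 15 of 35 with 75th percentile scaling (20.6%), 15 with cyclic loess (19.7%) and 13 with a normexp offset of 50 (22.6%). On probes well above background on at least 10 arrays there were 14 of 25 (31.7%). There were 16 with the probe of highest mean (22.4%), 13 on litter means (19.3%), 15 without chip 1 (22.4%) and 17 with trend and robust eBayes (21.5%). They became 9 of 39 with no filter (4670 of all genes called, 9.62%) and 10 without the sow block, the pairing of siblings (14.4%). They became 3 without a chip term (1929 of all genes, 5.42%) and 9 without chip 2 (14.2%). There were 0 by limma both without chip 3 (537 of all genes) and with brightness in the fit (780 of all genes). The sow correlation was estimated anew in the fits without a chip, at −0.58 without chip 2 and 0.226 without chip 3. Its part in these counts was not tested. With each probe fitted on its own, 18 genes had a called probe. Without 1 pig the calls ranged from 7 to 17 of the genes and from 3761 to 10051 of all genes; they fell to 7 without DD pig 21, to 8 without LW pig 12 or LW pig 24, to 9 without DD pig 23, LW pig 5 or LW pig 22, and to 10 without DD pig 10 or LW pig 18. CCL5, CXCR4, CXCR7, CCL20, CCL21 and IL8 were called whichever pig was left out, but under the other settings CCL21 lost its call in 8 of 14, IL8 in 5 of 14, CCL20 in 4 of 15, CCL5 in 3 of 15, CXCR4 in 2 of 15 and CXCR7 in 2 of 14. The remaining called genes depended on single pigs. Of 21 fits without 1 pig, CCL25 and CCRL2 lost the call in 15, CCR9 and CXCL13 in 14, CCL27 in 13 and CCL14 in 11. CCL22 lost it in 4, CCL8 in 3, CXCL2 in 2 and XCR1 in 1. Signs turned with brightness in the fit for CXCL13 (−0.13), CCL25 (−0.0074), CCL11 (−0.21), CCL19 (−0.22) and CCR7 (0.24). They turned under 75th percentile scaling for CCR10 (0.0863) and CXCL14 (0.38). Within chip 1 they turned for the called genes CXCL13 (−0.10), CCL22 (−0.0282), CCL25 (−0.0205) and CCL14 (−0.00037). Among genes not called they turned within chip 1 for CCL19 (−0.265), CX3CL1 (−0.262), CCL11 (−0.0229), CCR7 (0.127) and CXCL12 (0.0086), within chip 2 for CCL11 (−0.0338), CCR6 (−0.0516), CMKLR1 (−0.115) and CXCR6 (0.0595), and within chip 3 for CCR10 (0.163) and CXCL16 (−0.151). Without chip 1 it was CCR6 (−0.0273) and CXCL16 (−0.0146), without chip 2 CX3CL1 (−0.0576), CXCL12 (0.10) and CXCL16 (−0.0655), and without chip 3 CCL11 (−0.0555). CXCL16 also turned without a chip term (−0.0108). Without 1 pig, CXCL12 ran from −0.13 to 0.0930 and CXCL16 from −0.0187 to 0.0610. The relation of CXCR4 to T cell markers was −0.105 within chip 1, and that of CXCR6 to cytotoxic markers −0.296 within chip 3. The cause was not tested. No paired analysis was possible because the breeds share no animal number. Genes near background have the least certain sizes: CXCR7, IL8, CCL21 and CXCL2 were above background on at most 2 of the 10 DD arrays.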
